A study of Mus musculus with 130 samples.

Results

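The 10 genes Fasn, Acaca, Acly, Scd1, Elovl6, Srebf1, Thrsp, Pnpla3, Me1 and Mlxipl were followed in mouse liver RNA. They were chosen by name as genes of de novo lipogenesis, though with earlier results of these data known. All 10 were found among the 36077 genes of the deposited tables, and all 10 passed the filter on low counts in both studies. In the diet study, male C57BL/6J mice were fed chow, a diet with 50 ppm iron (called sufficient), a diet with 500 ppm iron (elevated), 2% carbonyl iron (20000 ppm), or the same 2% carbonyl iron with cellulose as the source of fibre, with 3 mice per diet. In the strain panel, males of 114 inbred strains received chow for 4 weeks and 2% carbonyl iron for 6 weeks. Recombinant inbred lines made up most of it, with 56 BXD, 20 AXB/BXA, 4 BXH and 3 CXB, and the remaining 31 were classical inbred lines. Each was sampled in 1 mouse apart from 129X1/SvJ (2 mice). The large lobe was sampled for RNA, and neither the hour of collection nor feeding before it is given in the sources used here.

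De novo lipogenesis turns carbohydrate into fatty acids in the cytosol of the hepatocyte. Citrate exported from mitochondria is split to acetyl-CoA by ATP citrate lyase (Acly), carboxylated to malonyl-CoA by acetyl-CoA carboxylase (Acaca) and built into palmitate by fatty acid synthase (Fasn), with NADPH from malic enzyme (Me1) and the pentose phosphate pathway. Elovl6 lengthens palmitate and Scd1 introduces a double bond. Srebf1 encodes SREBP-1, which transmits the insulin signal to these genes, and Mlxipl encodes ChREBP, which responds to glucose. Thrsp (Spot 14) promotes lipogenesis, and Pnpla3 encodes a lipid droplet protein that is itself a lipogenic target.

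On GRCm38 the genes lie at chr11:120805846-120824547 (Fasn, minus strand), chr11:84129672-84401651 (Acaca, plus), chr11:100476353-100528000 (Acly, minus), chr19:44394455-44407879 (Scd1, minus) and chr3:129532355-129638495 (Elovl6, plus). Srebf1 lies at chr11:60199089-60222581 (minus), Thrsp at chr7:97412938-97417730 (minus), Pnpla3 at chr15:84167837-84187236 (plus), Me1 at chr9:86581371-86695953 (minus) and Mlxipl at chr5:135089890-135138382 (plus). The annotation lists all 10 as protein-coding.

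The sequences before the start sites are shown because the 10 genes varied together over the strains, as described further on. RefSeq (GRCm38.p6) gave 13 start sites for 9 of the genes, and for Scd1 none was at hand. The 250 bases before each start were searched on both strands for 4 motifs. The CCAAT box (CCAAT) was found at 7 of the 13 starts, in Fasn, Me1, Mlxipl, Pnpla3, Srebf1 and Thrsp, against 33.8% of all 32851 promoters in the table. The GC box (GGGCGG) was found at 6 of 13, in Acly, Me1, Mlxipl, Pnpla3 and Srebf1, against 32.7%. The E-box letters CACGTG were present at 1 start (6.02% of all promoters) and the sterol response element letters TCACNCCAC at 1 (1.05%), both in Mlxipl but at different starts. Acaca and Elovl6 had none of the 4 in this window, which says only that these letters are not there. For Acaca the only start site at hand lies inside the gene, downstream of the gene start given above. The bases before that gene start were not searched, so whether they hold any of these motifs was not tested. Some windows of other genes also lie within or overlap the genes as placed above. The Thrsp window overlaps its gene, and its CCAAT boxes lie in the overlap. The CCAAT box of Me1 and the sterol response element letters of Mlxipl also belong to starts inside those genes. Fasn and Thrsp are shown with CCAAT boxes in capitals on either strand, 2 of which overlap in Fasn, Acly with its GC boxes, and Mlxipl with its E-box. Fasn is at chr11:120824548-120824797, Thrsp at chr7:97417551-97417800 and Acly at chr11:100528001-100528250, all on the minus strand, and Mlxipl is at chr5:135089640-135089889 on the plus strand.
Fasn: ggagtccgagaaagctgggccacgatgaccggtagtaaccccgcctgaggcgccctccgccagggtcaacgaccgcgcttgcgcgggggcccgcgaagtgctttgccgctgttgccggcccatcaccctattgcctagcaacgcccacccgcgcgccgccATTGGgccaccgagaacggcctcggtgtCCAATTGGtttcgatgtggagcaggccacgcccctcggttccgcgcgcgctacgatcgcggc
Thrsp: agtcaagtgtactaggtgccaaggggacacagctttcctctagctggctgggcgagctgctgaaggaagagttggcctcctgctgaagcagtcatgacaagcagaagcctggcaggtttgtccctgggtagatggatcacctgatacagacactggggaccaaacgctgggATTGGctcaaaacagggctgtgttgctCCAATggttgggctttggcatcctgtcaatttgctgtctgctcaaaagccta
Acly: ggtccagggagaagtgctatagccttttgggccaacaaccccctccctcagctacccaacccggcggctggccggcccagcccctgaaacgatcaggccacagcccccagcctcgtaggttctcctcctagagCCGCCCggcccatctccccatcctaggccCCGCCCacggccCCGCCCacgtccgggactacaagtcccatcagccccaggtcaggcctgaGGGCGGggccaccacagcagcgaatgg
Mlxipl: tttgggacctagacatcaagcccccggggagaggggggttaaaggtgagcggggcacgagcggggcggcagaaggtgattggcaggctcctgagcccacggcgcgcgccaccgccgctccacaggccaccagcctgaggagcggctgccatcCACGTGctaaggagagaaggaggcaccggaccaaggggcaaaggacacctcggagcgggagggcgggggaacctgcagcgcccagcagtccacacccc
No measurement here bears on whether any factor bound these letters.

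Total counts per library were 10.42 M to 20.36 M (mega) for the mice of the diets and 9.41 M to 20.57 M for the strains. All 8 hepatocyte markers were detected in every diet group and in the panel, with a summed level of 39561 TPM or more in each library. Adipocyte markers, which matter because fat cells express the same genes, summed to at most 3.84 TPM in any library of the diet study and 1.81 TPM in the panel, and Adipoq was at 0 TPM in 11 of the 15 diet libraries. Kupffer cell and macrophage markers, all 7 detected, summed to 263 to 425 TPM in the mice of both 2% groups and to 61.2 to 118 TPM in the other mice. The 6 erythroid markers summed to 359 to 1070 TPM and to 59.2 to 254 TPM. In the panel, Kupffer cell and macrophage markers summed to 96.3 to 543 TPM and erythroid markers to 3.85 to 6881 TPM. The 7 exocrine pancreas markers reached 179 TPM in a panel library, with a panel median of 0.711 TPM. Their part in the results was not tested. The library labelled BXD65/RwwJ had 1.08 TPM summed over 4 Y-linked genes, against 32.7 to 116 TPM in the other 114 panel libraries, so results over strains were repeated without it. In bulk tissue, fewer cells expressing a gene and less RNA per cell cannot be told apart.

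**Figure D1:**
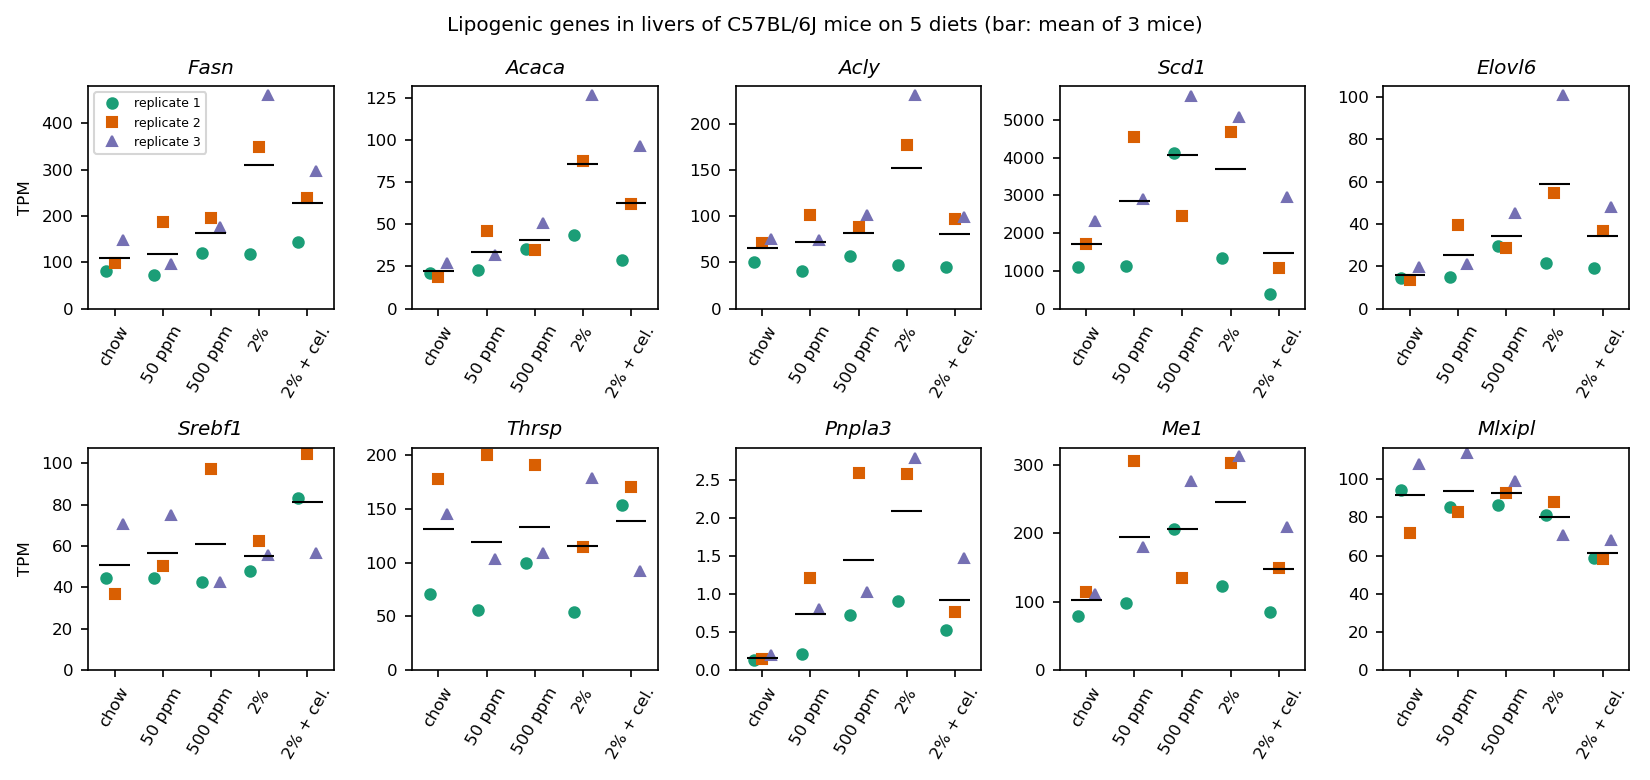
TPM of each lipogenic gene in the 15 livers of the diet study, with a linear axis from 0 for each gene, a symbol for each replicate number and a bar for the mean of 3 mice. Replicate 1 on 2% iron is the lowest of its group for 9 of the 10 genes, and replicate numbers do not pair mice across diets.

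On 2% iron Fasn, Acaca, Acly, Elovl6, Me1 and Pnpla3 had the highest means of the 5 diets, while Scd1 was highest at 500 ppm, but the mice of a group differed so widely that few of these differences passed the test. Against chow, Pnpla3, Acaca, Elovl6 and Fasn rose. Against 50 ppm, only Acaca did. Srebf1 and Thrsp showed no such difference, and Mlxipl fell when the 2% diet with cellulose was compared with 50 ppm. The labels give no iron content for chow. In comparisons with chow, iron and the rest of the diet therefore cannot be told apart.

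Acaca, the first committed step, was measured at 43.7, 87.4 and 126 TPM on 2% iron and at 22.8, 45.8 and 31.5 TPM on 50 ppm. Its range overlapped between these diets. The log2 change was 1.30 (SE 0.40), with an adjusted p of 0.0435 from edgeR's quasi-likelihood test. This call was made in 12 of 22 alternative fits. It was absent in both limma fits and without replicate 2 or 3 of the 2% group, replicate 2 of the cellulose group, replicate 1 or 3 of the 50 ppm group or any chow replicate (adjusted p up to 0.173). On chow the 3 mice had 21.2, 18.4 and 27.3 TPM, all below the lowest mouse on 2% iron. Against chow the log2 change of Acaca was 1.92 (SE 0.41, adjusted p 0.00462), and it was called in all 22 alternatives.

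Fasn was at 117, 349.8 and 462 TPM on 2% iron, at 80.4, 99.0 and 147 TPM on chow and at 72.8, 187 and 96.8 TPM on 50 ppm. Replicate 1 of the 2% group fell inside the range of both other groups. Against chow Fasn rose by a log2 change of 1.55 (SE 0.52, adjusted p 0.0448), a call made in 10 of 22 alternatives and in 6 of the 15 fits that left out a library. Without replicate 3 of the 2% group it was 0.96 (adjusted p 0.228), and it was also absent without replicate 2 of that group, of the cellulose group or of the 500 ppm group, replicate 3 of the 500 or 50 ppm group, or any chow replicate. Against 50 ppm the value was 1.33 (SE 0.52, adjusted p 0.0973), with 0.74 (adjusted p 0.398) without replicate 3 of the 2% group and 1.75 (adjusted p 0.0232) without its replicate 1.

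Elovl6 was measured at 21.3, 54.7 and 101 TPM on 2% iron and at 14.5, 13.6 and 19.9 TPM on chow, with no overlap. It rose by 1.77 (SE 0.50, adjusted p 0.0203). Without replicate 3 of the 2% group the change was 1.05 (adjusted p 0.131), and the call was also absent without chow replicate 1 or 2. The 50 ppm mice had 15.2, 39.7 and 21.1 TPM, and the difference from 50 ppm was 1.16 (SE 0.49, adjusted p 0.126). Of the 2% group, leaving out replicate 3 gave 0.44 (adjusted p 0.587) and leaving out replicate 1 gave 1.54 (adjusted p 0.0409).

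Pnpla3 had the widest difference between diets and the lowest level of the 10. On chow it was at 0.128, 0.147 and 0.200 TPM, from 6, 8 and 13 counts. On 2% iron the mice had 0.903, 2.57 and 2.79 TPM, from 48, 122 and 151 counts. No mouse on 2% iron was near the chow mice, and the log2 change was 3.58 (SE 0.71, adjusted p 0.00297). It was called in all 21 alternatives that kept the gene. The 50 ppm mice, at 0.209, 1.20 and 0.807 TPM, were all above the chow mice as well, with a log2 difference of -2.11 for chow against 50 ppm (SE 0.76, adjusted p 0.338).

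Acly was at 46.9997, 178 and 231 TPM on 2% iron and at 50.0, 70.5 and 74.9 TPM on chow, a log2 difference of 1.20 (SE 0.49, adjusted p 0.0974). The low mouse was again replicate 1 of the 2% group, and without it the difference was 1.63 (adjusted p 0.0147). Me1 was at 122, 302 and 313 TPM on 2% iron and at 79.7, 114 and 111 TPM on chow. Its groups did not overlap, yet the log2 difference of 1.17 (SE 0.43) had an adjusted p of 0.0645. It was 1.51 (adjusted p 0.0212) without replicate 1 of the 2% group and 1.17 (adjusted p 0.0476) with no filter on low counts. Scd1 was the most abundant of the 10 per length, at 1335, 4670.1 and 5087 TPM on 2% iron, 1130.0, 4544 and 2898 TPM on 50 ppm and 1092, 1704 and 2317 TPM on chow. Against chow its log2 difference was 0.99 (SE 0.67, adjusted p 0.320).

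The regulators gave small differences on 2% iron alone. Srebf1 was at 47.9, 62.3 and 55.5 TPM on 2% iron and at 44.7, 50.3 and 74.8 TPM on 50 ppm, a log2 difference of 0.00 (-0.0021, SE 0.33). Thrsp was at 54.4, 114 and 179 TPM against 55.9, 199.9 and 103 TPM (log2 difference -0.07, SE 0.50). Neither standard error shows that the groups were alike. Mlxipl varied least between mice, from 57.97 to 114 TPM over the whole study. On 2% iron with cellulose its 3 values, 58.5, 57.97 and 68.2 TPM, lay below all 3 of the 50 ppm group, 85.3, 82.9 and 114 TPM. It fell by a log2 change of 0.73 (-0.73, SE 0.14, adjusted p 0.00186) and was called in all 22 alternatives. Without cellulose the mice had 81.4, 87.8 and 70.6 TPM, a log2 difference of -0.30 from 50 ppm (SE 0.14, adjusted p 0.155).

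**Figure D2:**
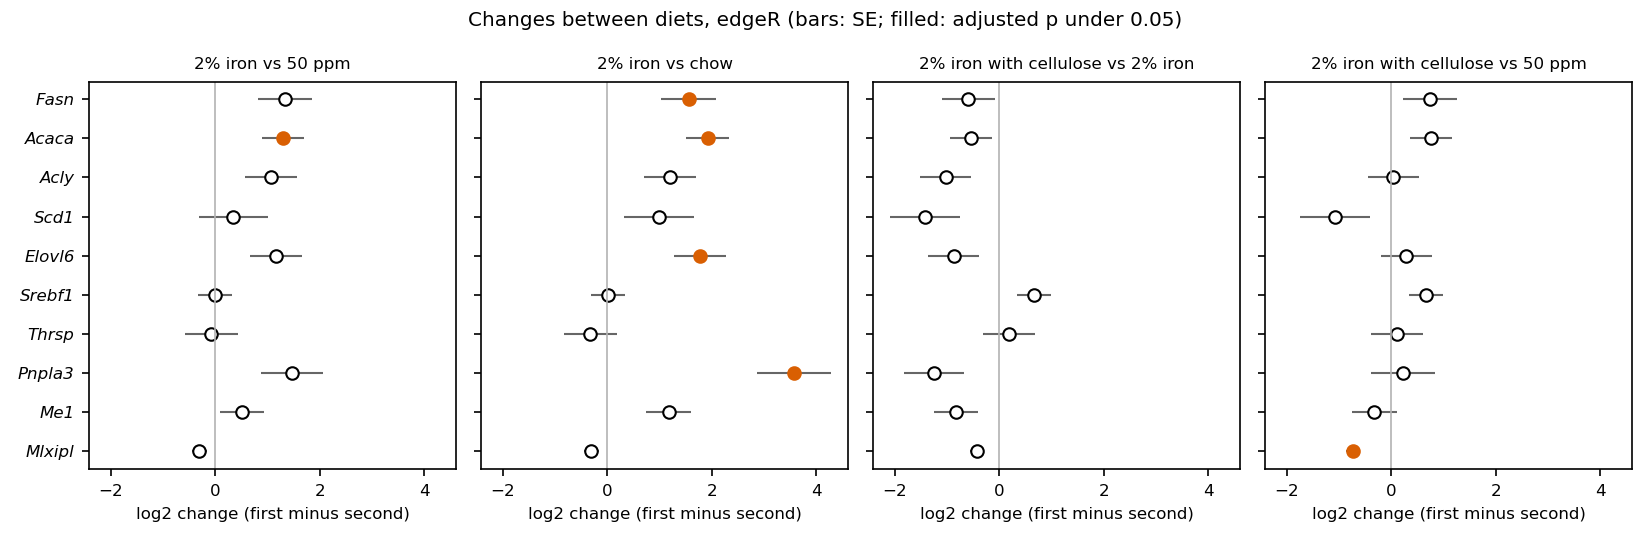
Log2 change of each gene in 4 comparisons of diets, the first named diet minus the second, with points for the estimate, bars for its SE and filled points for an adjusted p under 0.05. Acaca is filled in the comparison with 50 ppm, 4 genes are filled in the comparison with chow, and Mlxipl is filled for cellulose against 50 ppm.

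These counts need the share of all genes beside them. In 2% iron against 50 ppm, 1 of 10 was called, higher, while 15.7% of the 13560 genes tested were called and 8.52% were called higher. At an unadjusted p under 0.05 there were 6 of the 10, against 30.2% of all genes. The median log2 difference of the 10 was 0.78, against 0.01 over all genes. In 2% iron against chow, 4 of 10 were called, all higher, with 22.8% of all genes called and 11.9% higher, and the medians were 1.19 and 0.01. No group overlap was seen for 4 of the 10 in that comparison (Acaca, Elovl6, Pnpla3 and Me1) and for 33% of all genes. Over any of the 5 diets, Acaca (adjusted p 0.0149), Pnpla3 (0.0114) and Mlxipl (0.00421) were called, 3 of 10 against 32% of all genes, which is near the background. Comparisons with 2% iron share those 3 mice, so their values are not independent of each other.

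At 500 ppm none of the 10 differed from 50 ppm in edgeR's test, and 0.0% of all genes did. No member had an unadjusted p under 0.05 there, against 3.16% of all genes, and DESeq2 and both limma fits called no member. The largest log2 difference of the 10 was 1.05 for Pnpla3 (SE 0.59, adjusted p 1.0). In 2% iron against 500 ppm none was called while 11.3% of all genes were, with Acaca at 1.09 (SE 0.40, adjusted p 0.0956). Without replicate 1 of the 2% group Acaca passed, at 1.40 (adjusted p 0.0425). In chow against 50 ppm none was called, with 0.391% of all genes called, and groups did not overlap for 1 (Pnpla3), against 13.1% of all genes.

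The change of fibre source at 2% iron gave no called member, with 0.0811% of all genes called. Of the 10 estimates, 8 were lower with cellulose, and the median was -0.71 against 0.00 over all genes. Scd1 was at 374.9, 1081 and 2952 TPM with cellulose, a log2 difference of -1.42 (SE 0.67, adjusted p 0.397) from 2% iron alone. Leaving out 1 library moved this value between -2.39, without replicate 3 of the cellulose group, and -0.96, without its replicate 1. Acly was at 45.3, 97.5 and 99.3 TPM, a difference of -1.03 (SE 0.49, adjusted p 0.3999). Mlxipl was the only one whose groups did not overlap (log2 difference -0.43, SE 0.14, adjusted p 0.220), against 15.9% of all genes. Srebf1 had the opposite sign, with 83.3, 104.3 and 56.8 TPM on cellulose and a difference of 0.66 (SE 0.33, adjusted p 0.418). Against 50 ppm the cellulose diet had 1 called member of 10, Mlxipl, with 29.7% of all genes called and 14.3% called lower, and its groups alone of the 10 did not overlap, against 36.4% of all genes.

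In most diets the genes tended to be high or low in the same mouse, but not at 500 ppm. There replicate 2 was the lowest for 4 of 10 genes and the highest for 4 others. On chow the lowest mouse was replicate 1 for 6 genes and replicate 2 for 4. Replicate 1 was the lowest of its group for 9 of 10 genes on 2% iron and for 9 of 10 on 50 ppm. Replicate 3 was the highest for 8 of 10 on chow, on 2% iron and on 2% iron with cellulose, and replicate 2 for 8 of 10 on 50 ppm. The SD of log2 CPM within diets was 0.99 for Scd1, 0.85 for Pnpla3, 0.76 for Fasn, 0.74 for Acly and 0.73 for Thrsp. Over all genes tested its median was 0.20, and 8 of the 10 genes lay between the 91.8 and 97.7 percentiles. Srebf1, at 0.46, was at the 85.3 percentile, and Mlxipl, at 0.18, at the 43.3 percentile.

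Genes of daily time and feeding differed between the same mice. Dbp, an output gene of the circadian clock, was at 1.93, 1.19 and 5.37 TPM on 2% iron and at 38.8, 52.1 and 10.43 TPM with cellulose. On 500 ppm it was at 1.18, 34.7 and 4.75 TPM, and replicate 2, the high one, also had the highest Srebf1 of its group (97.2 TPM against 42.8 in both others) and the highest Thrsp (191 TPM). In TPM that mouse was the lowest of its group for Scd1, Acaca, Elovl6 and Me1. In CPM it was the lowest for Scd1 and Me1, while replicate 1 was lower for Acaca and Elovl6. Nr1d1, a clock repressor, fell in 2% iron against 50 ppm by a log2 change of 1.24 (-1.24, SE 0.39, adjusted p 0.0451), and Tef, a clock output factor, fell against chow (-1.16, SE 0.39, adjusted p 0.0431). Of 12 clock genes, 1 was called in the comparison with 50 ppm and 2 in that with chow, all lower. Over all genes 15.7% and 22.8% were called in these comparisons, a larger share in each. Igfbp1, which is high when insulin is low, rose in 2% iron against 50 ppm (1.47, SE 0.43, adjusted p 0.0348). Pck1, an enzyme of gluconeogenesis, fell (-0.65, SE 0.19, adjusted p 0.0321), as did Cpt1a (-0.92, SE 0.18, adjusted p 0.00518), an enzyme of fatty acid oxidation. Of the 10 fasting genes, 1 was called higher and 3 lower, against 8.52% and 7.17% of all genes. The part of the hour and of feeding in the values of the lipogenic genes was not tested.

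Other steps of the pathway gave a mixed picture on 2% iron. Over all genes, 15.7% were called against 50 ppm and 22.8% against chow. Among 9 tested genes that supply citrate, acetyl-CoA and NADPH, the pentose phosphate enzyme Pgd rose against 50 ppm (1.07, SE 0.28, adjusted p 0.0185) and Pdha1, a subunit of pyruvate dehydrogenase, fell (-0.43, SE 0.11, adjusted p 0.0168). Against chow, G6pdx rose by 1.65 (SE 0.50, adjusted p 0.0280) and Pgd by 1.34 (SE 0.28, adjusted p 0.00384). Among 10 glycolytic genes, the phosphofructokinase subunit Pfkl rose against 50 ppm (1.35, SE 0.20, adjusted p 0.000892) and the glycerol phosphate enzyme Gpd1 fell (-1.21, SE 0.21, adjusted p 0.00262). Pklr, liver pyruvate kinase and a ChREBP target, rose against chow (1.37, SE 0.21, adjusted p 0.000514), where 3 of the 10 were called higher and 1 lower.

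The same shares of all genes apply to the lists downstream. Of 9 genes of triglyceride assembly tested, 2 were called against 50 ppm, both lower. They were Acsl1, which activates fatty acids (-0.96, SE 0.26, adjusted p 0.0230), and Gpat4, a glycerol phosphate acyltransferase (-0.77, SE 0.12, adjusted p 0.00119). Of 9 elongation and desaturation genes, Scd2 was called, higher (0.84, SE 0.23, adjusted p 0.0245). Of 20 regulators, Mbtps2, a protease that activates SREBPs, rose (0.47, SE 0.10, adjusted p 0.00714), and Nr0b2 (-1.80, SE 0.46, adjusted p 0.0181) and Usf2 (-0.50, SE 0.11, adjusted p 0.00981) fell. None of 13 sterol synthesis genes was called against 50 ppm. Against chow 4 of these 13 were called, all lower, among them Idi1 (-1.29, SE 0.44, adjusted p 0.0478), Cyp51 (-1.26, SE 0.41, adjusted p 0.0397) and Dhcr7 (-0.88, SE 0.29, adjusted p 0.0400).

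**Figure D3:**
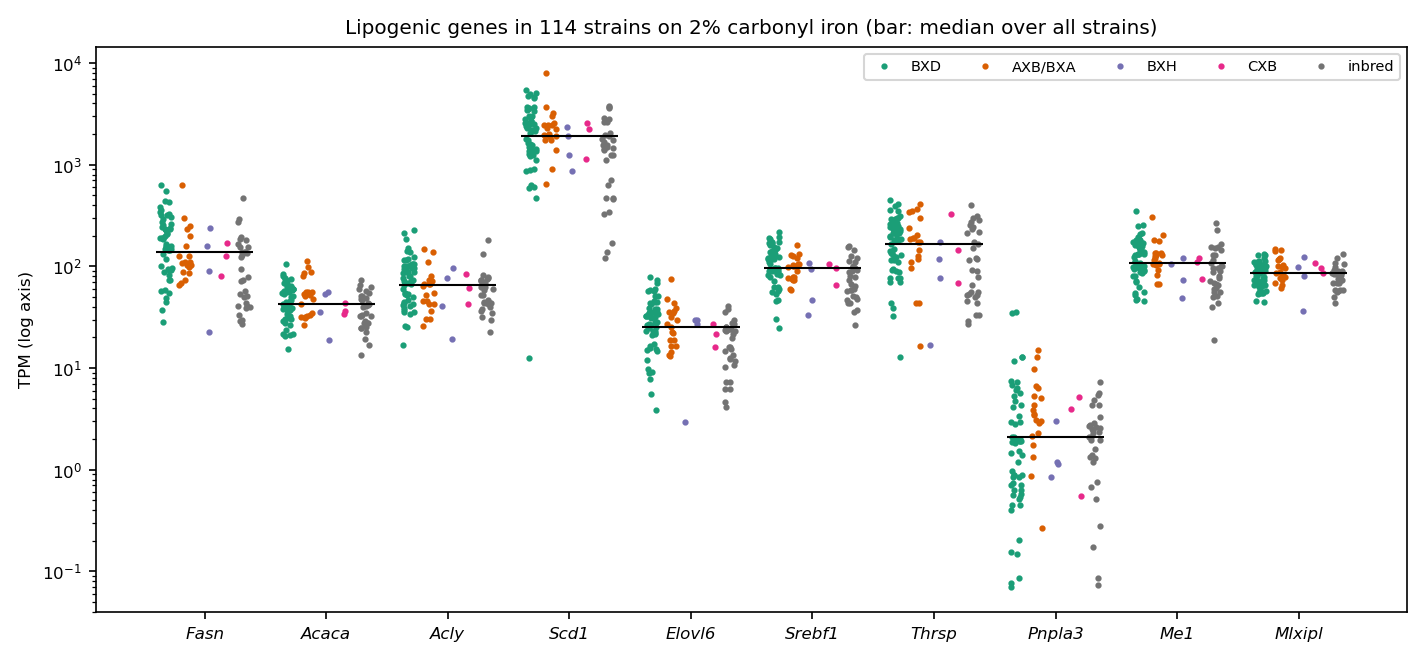
TPM of each lipogenic gene in 114 strains on 2% carbonyl iron, on a log axis, with a point per strain coloured by family and a bar at the median of all strains. Scd1 sits highest, with 1 BXD strain near 12.5 TPM, and Pnpla3 sits lowest, with a median of 2.09 TPM.

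Over the 114 strains, all on 2% iron, the lipogenic genes spanned wide ranges. Scd1 had a median of 1916 TPM and ran from 12.5 TPM in BXD48/RwwJ to 8025 TPM in AXB19/PgnJ. Fasn had a median of 138 TPM, from 22.4 TPM in BXH2/TyJ to 631.7 TPM in AXB19/PgnJ. Acaca ran from 13.5 TPM in NOD/ShiLtJ to 114 TPM in AXB19/PgnJ around 43.02 TPM, and Acly from 16.9 TPM in BXD38/TyJ to 229.7 TPM in BXD5/TyJ around 66.1 TPM. Both therefore spanned less than Fasn. Elovl6 ran from 2.96 TPM in BXH2/TyJ to 78.6 TPM in BXD79/RwwJ, and Me1 from 18.9 TPM in NZB/BlNJ to 346 TPM in BXD29/Ty. Srebf1 lay between 24.5 TPM in BXD48/RwwJ and 218 TPM in BXD6/TyJ, the same strains that bounded Thrsp, at 12.8 and 447 TPM. Mlxipl was the most even, from 36.4 TPM in BXH2/TyJ to 149 TPM in BXA13/PgnJ, a 4.08-fold range. Pnpla3 had a median of 2.09 TPM, with 35 strains under 1 TPM and 7 over 10 TPM. It reached 35.5 TPM in BXD5/TyJ and 34.6 TPM in BXD29/Ty. In 10 panel libraries it had 3 counts or fewer, so no fold range is given for it.

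Part of this spread is also seen between mice of a single strain. The SD of log2 CPM between strains was 0.56 for Acaca, 0.70 for Acly and 0.62 for Me1, which is 0.963, 0.944 and 1.004 times their SD between C57BL/6J mice within diets. For the median gene these SDs were 0.40 and 0.20. Mlxipl had the highest ratio of the 10, 2.38, followed by Pnpla3 (1.58) and Thrsp (1.56). The comparison is descriptive, since the studies were deposited as separate tables. The 2 mice of 129X1/SvJ, the sole repeat in the panel, had 155 and 155 TPM of Fasn, 3617 and 2890.0 TPM of Scd1 and 52.7 and 45.8 TPM of Thrsp. Their difference in log2 CPM was at most 0.34 for any of the 10 genes, below the SD between strains in each case, but it is a single pair.

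The same strains recurred at the ends. AXB19/PgnJ was among the 4 highest strains for 7 of the 10 genes, BXD5/TyJ and BXD79/RwwJ for 5 each and BXD29/Ty for 4. BXH2/TyJ was among the 4 lowest for 7, NOD/ShiLtJ for 5 and BXD38/TyJ for 4. The low strains shared other values. Igfbp1 was at 2048 TPM in BXH2/TyJ, 1783 TPM in BXD38/TyJ and 694.6 TPM in NOD/ShiLtJ, against a panel median of 142.3 TPM. Insig2, whose protein retains SREBPs in the endoplasmic reticulum, was at 569, 567 and 522.9 TPM in these strains, against a median of 162 TPM. Dbp was at 7.91, 3.84 and 1.87 TPM, against 66.0 TPM. With 1 mouse per strain, the strain and the state of that mouse cannot be told apart.

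Strains with nearly the same name also differed, and the labels do not say how closely they are related. Fasn was at 631.7 TPM in AXB19/PgnJ, 234 TPM in AXB19b/PgnJ and 65.8 TPM in AXB19a/PgnJ. Scd1 was at 8025, 1864 and 2438 TPM in the same order, so AXB19a/PgnJ, the lowest for Fasn, was not the lowest for Scd1. In BXD48/RwwJ Scd1 was at 12.5 TPM (848 counts), and in BXD48a/RwwJ it was at 635 TPM. BXD48/RwwJ was also the lowest strain for Srebf1 (24.5 TPM) and Thrsp (12.8 TPM), and 7th lowest for Fasn (36.9 TPM). Scd1 over Fasn, both in TPM, was 0.338 there, next to 2.40 in MRL/MpJ, 2.48 in the library labelled BXD65/RwwJ and 3.37 in AKR/J, and the median of all strains was 13.9. At the other end the ratio was 39.2 in BXH2/TyJ. The BXD48/RwwJ library had a total of 14.7 M counts, the highest Adipoq of the panel (0.602 TPM) and the third lowest Alb (29461 TPM against a median of 45036), and their part in its low Scd1 was not tested.

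**Figure D4:**
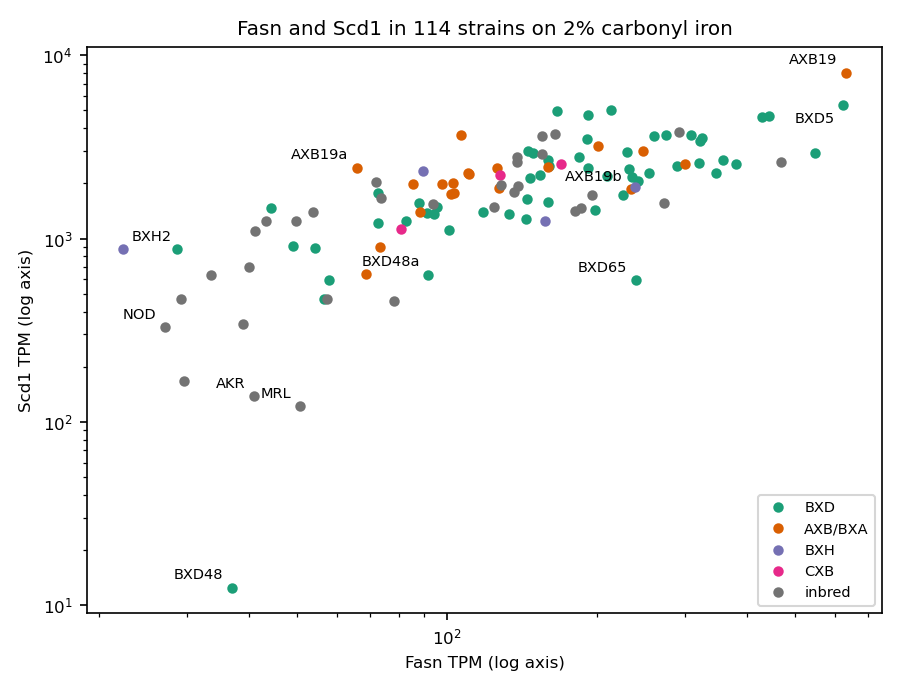
Scd1 against Fasn in TPM over 114 strains, both axes on a log scale, with points coloured by family and strains of the text labelled. BXD48/RwwJ (labelled BXD48) lies far below the other strains at 12.5 TPM of Scd1, and AXB19/PgnJ (labelled AXB19) lies at the top right.

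C57BL/6J and DBA/2J, parents of the BXD family, ranked between 18th and 89th lowest of 114 for all 10 genes. Fasn was at 128 TPM in C57BL/6J, 138 TPM in DBA/2J and 41.1 TPM in A/J, the last being 11th lowest of 114. A/J was also low for Acly (34.5 TPM), Me1 (61.8 TPM) and Srebf1 (51.2 TPM), and high for Thrsp (273 TPM, against 117 TPM in C57BL/6J). The BXD strains, which descend from C57BL/6J and DBA/2J, were then compared with the AXB/BXA strains, from C57BL/6J and A/J, with the strain as the replicate. None of the 10 genes was called, while 11.6% of 13794 genes were. At an unadjusted p under 0.05 there was 1 member, Mlxipl, against 25.2% of all genes, and DESeq2 and both limma fits also called no member. Mlxipl was at -0.25 (SE 0.10, adjusted p 0.0728), with medians of 80.3 TPM in BXD and 92.3 TPM in AXB/BXA. Fasn, at 0.30 (SE 0.24, adjusted p 0.454), had medians of 175 and 109 TPM, and its ranges overlapped almost fully. By contrast, 8 of 13 sterol synthesis genes were called, all higher in BXD, with Mvd at 0.98 (SE 0.25, adjusted p 0.00433) and Sqle at 0.96 (SE 0.20, adjusted p 0.000484). Insig1, a target and brake of SREBPs, was higher by 0.65 (SE 0.15, adjusted p 0.000900).

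The 10 genes varied together over strains. Each of the 45 pairs was positively correlated, with r from 0.30 to 0.90 and a median of 0.58, and all 45 passed (permutation test of 100000 resamples, two-sided, adjusted over 105 relations). Over all 123158665 pairs of the 15695 genes kept in the panel the median r was 0.00. Of these pairs, 5.91% reached the lowest r of the lipogenic pairs and 0.385% reached their median. All 45 also passed by Spearman's rho and under every alternative run on the pooled strains. The points share the library and its depth, and each strain is a single mouse apart from 129X1/SvJ.

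Fasn and Elovl6 had the highest value (r 0.90, rho 0.88, n = 114, adjusted permutation p 1.72e-05, from 1e-05, the smallest that the resamples give). Without the 2 strains farthest from the median of Fasn r was 0.88. Within BXD r was 0.88 (n = 56), within AXB/BXA 0.84 (n = 20) and within the other inbred strains 0.89 (n = 31). Fasn and Acly followed (r 0.89, rho 0.90, same p), with 0.94, 0.81 and 0.86 within the families. Fasn and Scd1 stood at r 0.70 (rho 0.72, same p), with 0.65, 0.71 and 0.77 within the families, and Acly and Scd1 at 0.57 (rho 0.60). Pnpla3 and Mlxipl were the weakest pair (r 0.30, rho 0.29, adjusted permutation p 0.00162), and within BXD (0.22, adjusted permutation p 0.125) and within the inbred strains (0.26, adjusted permutation p 0.205) they did not pass. By family, 44 of 45 pairs passed by r in BXD, 42 in the inbred strains and 19 in AXB/BXA, where 8 passed by rho. In AXB/BXA 1 pair had an r below 0, no pair with Srebf1 or Thrsp passed, and the median r of those pairs was 0.16 for Srebf1 and 0.19 for Thrsp. Whether families differ in r was not tested. Against the mean of the other 9, r was 0.93 for Fasn, 0.89 for Elovl6, 0.85 for Acaca and for Acly, 0.82 for Me1, 0.72 for Scd1, 0.70 for Srebf1, 0.67 for Thrsp, 0.56 for Mlxipl and 0.53 for Pnpla3.

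**Figure D5:**
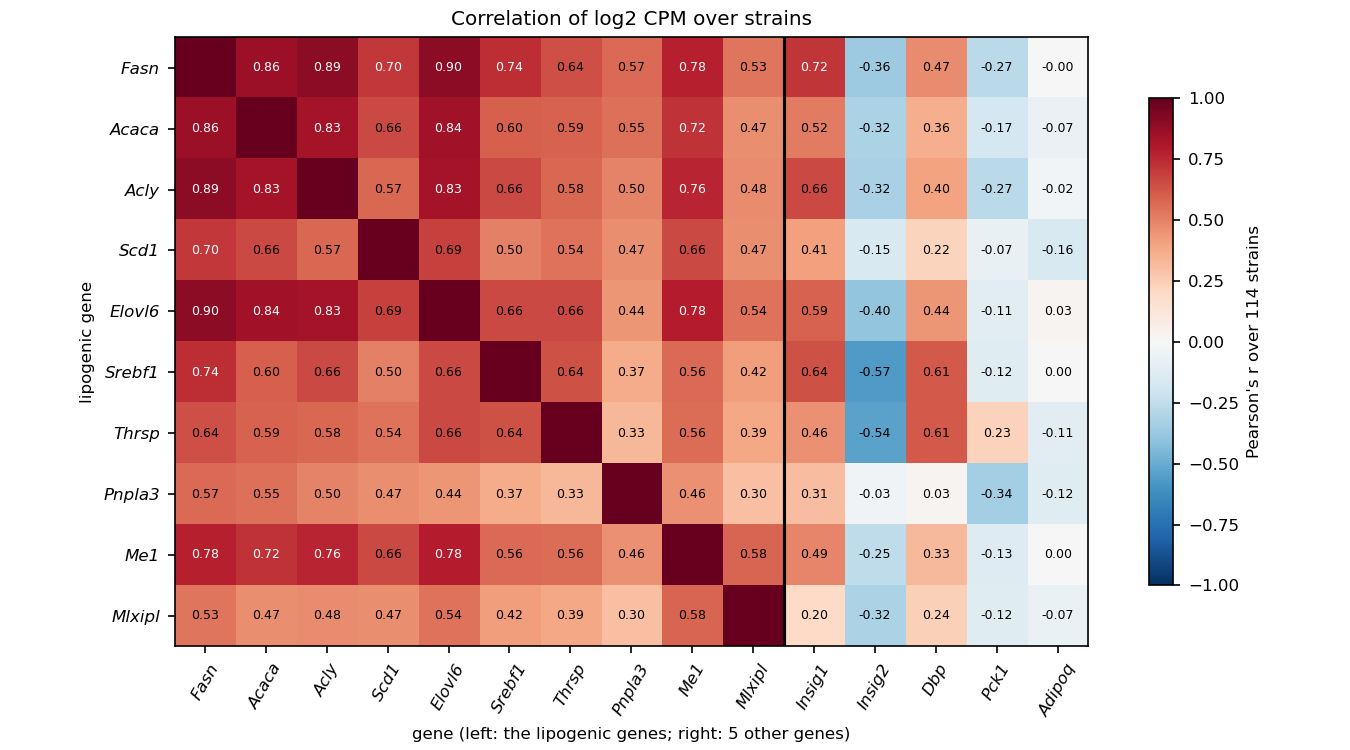
Pearson's r of log2 CPM over 114 strains for each pair of lipogenic genes (left of the line) and for each with 5 other genes (right), on a colour scale from -1 to 1. All pairs on the left are positive, from 0.30 to 0.90, and the column of Insig2 has no positive value.

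Relations of the members with 5 other genes were also examined, namely Insig1, Insig2, Dbp, Pck1 and the adipocyte marker Adipoq. Whether members differ in these values of r was not tested. Of 50 such relations 31 passed, 20 positive and 11 negative. How large a share of all genes would pass with the same 5 genes was not examined. The members are correlated with each other, so these counts are not of independent relations. Insig1 was positively related to all 10. It reached r 0.72 with Fasn (rho 0.72, adjusted permutation p 1.72e-05), with 0.75, 0.59 and 0.75 within BXD, AXB/BXA and inbred strains, the middle one with an adjusted permutation p of 0.0506.

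Insig2 was negatively related to 8 of the 10 genes. Srebf1 had the lowest value (r -0.57, rho -0.55, adjusted permutation p 1.72e-05), with -0.61 in BXD, -0.62 in AXB/BXA and -0.40 in inbred strains, all past the threshold. Thrsp followed (r -0.54, rho -0.56, same p), with -0.44, -0.49 and -0.58 in the families, and in AXB/BXA it did not pass (adjusted permutation p 0.104). Scd1 (r -0.15) and Pnpla3 (r -0.03) were not called.

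Dbp was positively related to 9 of the 10. Its r was 0.61 with Srebf1 (rho 0.68) and 0.61 with Thrsp (rho 0.58), each with an adjusted permutation p of 1.72e-05, and 0.03 with Pnpla3 (adjusted permutation p 0.787). Within families the relation of Dbp with Srebf1 was 0.67 in BXD, 0.66 in inbred strains and 0.52 in AXB/BXA, the last with an adjusted permutation p of 0.0682. Dbp itself ran from 0.540 to 180 TPM over strains around a median of 66.0 TPM. Pck1 was negatively related to Pnpla3 (r -0.34, rho -0.25, adjusted permutation p 0.000365), Fasn (r -0.27) and Acly (r -0.27), and positively to Thrsp (r 0.23, adjusted permutation p 0.0184). The last did not pass in BXD (r -0.09, adjusted permutation p 0.541). Adipoq, at a median of 0 TPM, was related to none.

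Genes outside the list whose pattern over strains was most like the mean of the 10 (Pearson's r over 114 strains, a description with no test) were Cyb5r3 (0.84), Acsl5 (0.83), Chrna4 (0.82), Acss2 (0.81) and Slc25a1 (0.81). Cyb5r3 is a cytochrome b5 reductase, Acsl5 activates fatty acids, Chrna4 is a nicotinic receptor subunit, Acss2 makes acetyl-CoA from acetate and Slc25a1 exports citrate from mitochondria. Over the fixed lists the median r with the same mean was 0.64 for 9 elongation and desaturation genes, 0.60 for 13 sterol synthesis genes and 0.53 for 10 genes of citrate, acetyl-CoA and NADPH supply. It was 0.37 for 10 glycolytic genes, 0.17 for 10 genes of triglyceride assembly, 0.04 for 12 clock genes and -0.20 for 10 fasting genes, with -0.02 over the 15685 other genes. All 13 sterol genes were positive. Igfbp1 was the lowest of the fasting genes, at -0.60.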

How the data were processed

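Liver mRNA was sequenced in 15 mice of the diet study and 115 mice of the strain panel. The authors deposited estimated counts per gene, not normalised between libraries, and the TPM deposited beside them are scaled by gene length and library. The submitters' processing notes name kallisto 0.46 and mm10, with no role or order given. Of the deposited counts, 26.5% (diet) and 27.4% (panel) were not whole, although whole counts had been assumed, so counts were rounded before testing. The studies were deposited as separate tables and never pooled. Symbols were matched for 34845 of 35274 identifiers in the diet study and 35612 of 35711 in the panel.

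Comparisons used edgeR 4.0.16 in R 4.3.3 (TMM, filterByExpr, quasi-likelihood test), fitted over all 15 diet libraries, or over the BXD and AXB/BXA libraries. P-values were adjusted by Benjamini-Hochberg over all genes tested, with 0.05 as the threshold. Adjusted p-values of alternatives come from edgeR, DESeq2 1.42.0 or limma 3.58.1 on log2(TPM + 1) or log2(TPM + 0.1). Correlations used log2 CPM (TMM, prior count 2) over 114 strains, the 2 mice of 129X1/SvJ averaged, with two-sided permutation tests of 100000 resamples. The methods were tested on simulated data. Motifs were searched in RefSeq promoters.

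Named were all 10 members, at most 3 called genes per list and comparison, 5 related genes, and the 5 genes most like the members' mean. The members and lists were chosen with earlier results of these data known. Mice within a diet are separate samples in the labels, and no source used here says whether they shared a cage or litter. Correlations were adjusted over 105 relations, and some results of the fits are not reported here.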

Additional observations from a re-analysis of the deposited data

Results flagged for a closer look

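Of 10 groups of 4 to 10 samples examined, namely the 4 BXH strains for each gene, 2 had a strain far from the others. For normally distributed values, chance gives about 1 such group in 20. The 10 groups are the same 4 mice, so they are not independent. Whether that rate holds for these TPM values was not tested. Elovl6 was at 2.96 TPM in BXH2/TyJ, where the other BXH strains had 26.8, 29.5 and 29.8 TPM. Pnpla3 was at 2.99 TPM in BXH14/TyJ, where the others had 0.844, 1.15 and 1.19 TPM. Each value is from a single mouse.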

How the results depend on the processing

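No paired analysis was possible because the labels give no replicate number, and numbers were given in accession order. Direction was checked only for the 34 log2 changes larger than their SE, in diet comparisons with a 2% group. None of these changed direction under alternatives, and smaller changes, which reverse more easily, were left out. None of the 86 correlations that passed over all strains changed sign under the 8 alternatives that kept the families together. For 2% iron against 50 ppm, 0 genes of the 10 were called by limma on log2(TPM + 1) and on log2(TPM + 0.1). Leaving out 1 library at a time, the number called of the 10 ran from 0 to 4 for 2% iron against 50 ppm, 0 to 1 against 500 ppm and 2 to 6 against chow. It ran from 1 to 3 for cellulose against 50 ppm and from 2 to 6 for any diet, and stayed at 0 for the other comparisons of diets. The 4 were Fasn, Acaca, Acly and Elovl6, without replicate 1 of the 2% group. Over all genes, limma on log2(TPM + 1) called 1208 in 2% iron against 50 ppm (edgeR 2127), 910 against 500 ppm (1538) and 1945 against chow (3087), and 906 between BXD and AXB/BXA (1606). In cellulose against 50 ppm it called 2657 (4026) and for any diet 2798 (4335). Between the 2 diets with 2% iron edgeR called 11, DESeq2 219, and in chow against 50 ppm 53 and 144. Of those 688 alternative correlations, 7 missed the threshold. Within families, of the same 86, 4 missed it in BXD, 17 in the inbred strains and 65 in AXB/BXA, and 1, 0 and 7 had the opposite sign. The correlation without BXD48/RwwJ and AXB19/PgnJ was chosen after seeing the data. Pnpla3 on chow rests on 6 to 13 counts per library, which limits the precision of its fold.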
